A study of Homo sapiens with 20 samples.

Results

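The Y RNAs and vault RNAs are small noncoding RNAs made by RNA polymerase III, and their levels were examined in total RNA of cytoplasmic RNA granules and of exosomes from HEK293 cells. The genes were taken by symbol from a list of 8, namely RNY1, RNY3, RNY4, RNY5, VTRNA1-1, VTRNA1-2, VTRNA1-3 and VTRNA2-1. Of these, 7 had an entry among the 62266 named genes of the deposited files (3 Y RNAs and 4 vault RNAs), and RNY5 was not analysed here. HEK293 is a human embryonic kidney cell line. The 4 groups were granules of HD-induced cells, granules of control cells, exosomes of HD-induced cells and exosomes of control cells, with 5 libraries each that the study describes as biological replicates. HD stands for Huntington's disease, and the sources used here name neither the means of induction nor whether replicates were separate cultures, so that p-values measure the spread between these libraries, which may be partly technical. The labels call the granules cores and title them SG. All cells were of 1 line, and no further allele or agent is named for any group.

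Y RNAs fold into a stem with an internal loop. The stem is bound by the protein Ro60, and the run of uridines at the 3′ end is bound by La. They have been linked to RNA quality control and to the start of DNA replication, and Y RNAs and their fragments are known from extracellular vesicles. Vault RNAs are the RNA part of the vault, a large hollow cytoplasmic particle built from the major vault protein MVP with TEP1 and PARP4, although most vault RNA in a cell is not in vaults. VTRNA1-1 binds the autophagy receptor SQSTM1 (p62), and VTRNA2-1, also called nc886, binds and restrains the kinase PKR.

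The sequences of 2 Y RNAs and 4 vault RNAs are shown because the genes of each family resemble each other, and the Y RNAs also many genomic copies, which bears on how reads were divided among them. They were read from the GENCODE release 29 transcripts of build GRCh38, and their lengths equalled those in the deposited files. Capitals in the Y RNAs mark the first 11 bases, which the 3 Y RNAs share and which form 1 side of the lower stem. Capitals in the vault RNAs mark the longest run that all 4 share, of 16 bases, and a shared run of 9 bases nearer the 5′ end.
RNY1: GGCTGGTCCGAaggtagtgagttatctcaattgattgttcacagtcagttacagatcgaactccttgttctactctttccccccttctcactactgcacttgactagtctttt
RNY4: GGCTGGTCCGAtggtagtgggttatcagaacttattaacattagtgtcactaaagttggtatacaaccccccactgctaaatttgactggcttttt
VTRNA1-1: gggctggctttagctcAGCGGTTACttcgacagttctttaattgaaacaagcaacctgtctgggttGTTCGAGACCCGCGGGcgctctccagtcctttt
VTRNA1-2: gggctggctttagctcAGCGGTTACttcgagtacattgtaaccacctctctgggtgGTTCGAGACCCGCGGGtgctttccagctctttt
VTRNA1-3: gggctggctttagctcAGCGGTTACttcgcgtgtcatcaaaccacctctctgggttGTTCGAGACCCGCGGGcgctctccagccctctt
VTRNA2-1: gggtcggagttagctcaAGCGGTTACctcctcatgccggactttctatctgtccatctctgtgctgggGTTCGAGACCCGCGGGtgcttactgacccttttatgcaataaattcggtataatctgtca
RNY1 lies on the minus strand at chr7:148987136-148987248. RNY4 is on the plus strand at chr7:148963315-148963410. VTRNA1-1 is at chr5:140711275-140711373, VTRNA1-2 at chr5:140718925-140719013 and VTRNA1-3 at chr5:140726158-140726246, each on the plus strand. VTRNA2-1 is on the minus strand at chr5:136080470-136080597, where the annotation also holds an overlapping exon of a miscellaneous RNA on the same strand. None of the other 6 genes overlaps another annotated gene, and each of the 7 is a single exon. The Y RNAs were 63.7% to 72.6% identical in pairs, and the 3 VTRNA1 genes 81.8% to 87.8% identical.

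The libraries differed widely in depth. In M (mega) estimated reads, HD granule libraries held 27.0 to 35.8 M, control granule libraries 17.4 to 38.4 M, HD exosome libraries 0.00107 to 14.4 M and control exosome libraries 8.99 to 15.6 M. HD exosome library 4 held only 1074 reads, and none was on any of the 7 genes. Between 24.9% and 59.2% of reads fell on entries with no gene name in the libraries other than HD exosome 2, where 86.6% did. HD granule library 3 was low for the Y RNA copies, whose summed level was 3.72 counts per M scaled reads on named genes (CPM) there, against 130.4 to 151 CPM in the other 4 HD granule libraries. That library also differed over named genes at large. The chi-square per degree of freedom was 359 to 724 in its pairs with the other 4, and 48.8 to 165 in the remaining pairs of that group. Several means of the HD groups are therefore given with and without HD granule library 3 or HD exosome library 4. The summed level of 8 markers of HEK293 cells was 522 to 1028 CPM in HD granules, 485 to 619 CPM in control granules, 1006 to 1314.5 CPM in HD exosomes without library 4 and 1034 to 1181 CPM in control exosomes. Among those markers NEFM was at 0 in all HD granule libraries. CPM here and below are scaled over all 20 libraries by trimmed means of M values (TMM). The scale rests on named genes that passed the count filter, so reads on unnamed entries do not enter it.

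RNY1, the longest of the human Y RNAs, was listed at 0 in every control granule library and above 0 in 4 of 5 HD exosome libraries, while 2 unnamed entries of nearly the same length held reads in many libraries where it was at 0. In HD granules RNY1 held 0, 2118.3, 0, 0 and 2013.7 estimated reads in libraries 1 to 5, and in control granules it held 0 in all 5. In HD exosomes it held 933, 289.7, 831, 0 and 1520 reads, and in control exosomes 0, 1007.4, 0, 0 and 953. RNY1 was thus either at 289.7 reads or more or at exactly 0, and it was at 0 in 12 of 20 libraries.

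In every library with more than 1074 reads where RNY1 was at 0, reads were found on 1 or both of 2 unnamed entries of 114 and 115 nt, beside 113 nt for RNY1. These entries were picked after their values were seen, from 403 unnamed entries within 3 nt of RNY1, of which 8 had 40 or more reads, so no test is given for them, and whether they carry the RNY1 sequence was not tested. In the 5 control granule libraries, where RNY1 was at 0, the 114 nt entry held 926, 1566.3, 1068, 1440 and 648 reads. In HD granule library 4, where RNY1 was also at 0, the 115 nt entry held 3351.7 reads. One of the 3 entries held over 90% of their summed reads in 16 of the 19 libraries with any, and RNY1 itself was at 0 in 11 of those 19. In HD exosome library 2 the reads were divided nearly evenly, with 289.7 on RNY1 and 286.3 on the 115 nt entry.

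Summed over RNY1 and both unnamed entries, every library but HD exosome 4 held reads. The sums were 2014, 2148.9, 89, 3351.7 and 2470 reads in HD granules, 926, 1615.9, 1068, 1440 and 648 in control granules, 933, 576, 831, 0 and 1520 in HD exosomes, and 1030, 1014, 1118, 986 and 953 in control exosomes. HD granule library 3 stood far below the other 4 of its group. On the CPM scale the sum averaged 119 ± 69.1 in HD granules, 82.0 ± 28.9 in control granules, with 342 ± 263 in HD exosomes and 163 ± 37.1 in control exosomes (SD, n = 5 each). Without HD granule library 3 the HD granule mean was 148 ± 28.9 CPM (n = 4), and without HD exosome library 4 the HD exosome mean was 428 ± 208 CPM (n = 4). Per M of all reads, named or not, HD exosome libraries 1, 2, 3 and 5 held 77.3, 39.9, 421 and 358. Control exosome libraries held 66.0 to 110 on that measure, and HD exosome library 2 was at 410 CPM. Control granule levels of 54.1 to 130 CPM overlapped control exosome levels of 124 to 201 CPM through control granule library 2 alone. In bulk RNA of this kind, fewer particles and less RNA in each particle cannot be told apart.

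**Figure D1:**
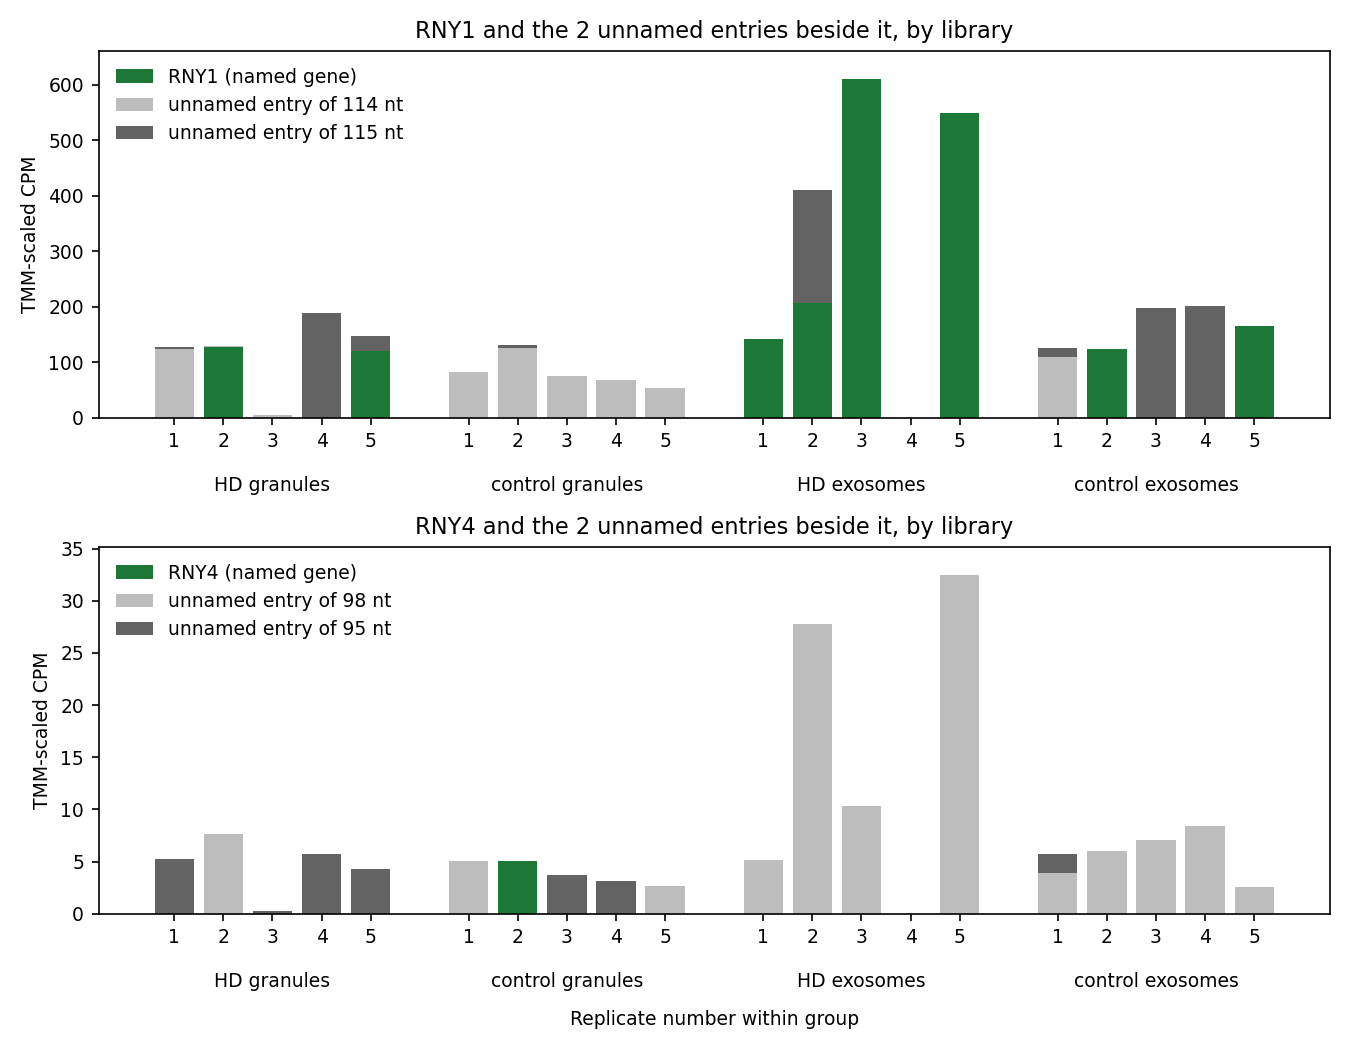
Stacked bars give the TMM-scaled CPM of RNY1 (top) or RNY4 (bottom) and of the 2 unnamed entries beside each, for the 20 libraries by group and replicate number. In RNY1, 1 colour fills over 90% of the bar in 16 of 19 libraries with reads, and RNY4 itself carries reads in control granule library 2 alone.

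A like pattern was seen beside RNY4. The named gene held reads in 1 library, control granule 2, with 62.8 reads, and was listed at 0 in the other 19. That library was in turn the one granule library in which neither of 2 unnamed entries of 98 and 95 nt, beside 96 nt for RNY4, held reads. Those 2 entries were also chosen after their values were seen, from 487 unnamed entries within 3 nt of RNY4, of which 6 had 40 or more reads. Whether they carry the RNY4 sequence was not tested. One of the 3 entries held over 90% of the summed reads in 18 of 19 libraries.

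The sums over RNY4 and both entries were 82.2, 128.3, 5.8, 100.9 and 71.7 reads in HD granules and 56.6, 62.8, 52.7, 65 and 31.7 in control granules. They were 34, 39, 14, 0 and 90 reads in HD exosomes and 47, 49, 40, 41 and 15 in control exosomes. In CPM the sums averaged 4.63 ± 2.73 in HD granules, 3.91 ± 1.11 in control granules, with 15.1 ± 14.3 in HD exosomes and 5.96 ± 2.14 in control exosomes (SD, n = 5 each). Without HD granule library 3 the HD granule mean was 5.72 ± 1.43 CPM (n = 4), and without HD exosome library 4 the HD exosome mean was 18.9 ± 13.2 CPM (n = 4). All 4 groups overlapped, and HD exosome libraries 2 and 5 were the highest at 27.8 and 32.5 CPM. Per M of all reads, named or not, the sum was 2.70 in library 2 and 21.2 in library 5. Control exosome libraries held 1.45 to 4.56 on that measure, so the rank of library 2 depended on the scale.

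RNY3, bound by Ro60 like the other Y RNAs, was found in 18 of 20 libraries. It held 212.3, 194.5, 21.6, 369 and 229.3 reads in HD granules and 74.4, 119.5, 112.4, 152.2 and 47.3 in control granules. In HD exosomes it held 14.2, 10.6, 0, 0 and 43.6 reads, and in control exosomes 33.3, 51, 58.4, 38.2 and 55.4. Scaled for depth, the 2 control groups overlapped, while HD exosomes spread widely around them.

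RNY3 averaged 12.1 ± 7.14 CPM in HD granules, 7.06 ± 2.07 CPM in control granules, 5.08 ± 6.70 CPM in HD exosomes and 7.61 ± 2.53 CPM in control exosomes (SD, n = 5 each). HD granules, at 1.01 to 20.8 CPM, overlapped control granules, at 3.95 to 9.63 CPM. Without HD granule library 3, at 1.01 CPM, the HD granule mean was 14.9 ± 4.06 CPM (n = 4), with libraries at 11.6 to 20.8 CPM. That library was set aside after its low Y RNA levels were seen, so no conclusion is drawn from the values without it. Without HD exosome library 4 the HD exosome mean was 6.35 ± 7.005 CPM (n = 4). The fitted log2 fold change of HD-induced over control granules was 0.75 ± 0.57 (SE), with an adjusted p of 0.9995 in edgeR's quasi-likelihood test. Without HD granule library 3 it was 1.08 ± 0.27, with an adjusted p of 0.489 in the same edgeR test.

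The vault RNAs held few reads, and they were found more often in granule libraries than in exosome libraries, which were also the shallower ones. VTRNA1-1 had reads in 7 of 10 granule libraries and 6 of 10 exosome libraries, VTRNA1-2 in 7 and 2, and VTRNA1-3 in 5 and 0. VTRNA1-1 held 46.1, 77, 0, 0 and 48.2 reads in HD granules and 19.1, 36.9, 0, 33.6 and 10.4 in control granules. It held 8, 3, 0, 0 and 0 reads in HD exosomes and 2, 9.8, 6.9, 0 and 12 in control exosomes. In CPM this gave 2.08 ± 2.02 in HD granules, 1.43 ± 1.10 in control granules, with 0.670 ± 0.974 in HD exosomes and 0.951 ± 0.839 in control exosomes (SD, n = 5 each). Without HD granule library 3 the HD granule mean was 2.60 ± 1.91 CPM, and without HD exosome library 4 the HD exosome mean was 0.837 ± 1.04 CPM (n = 4 each). Each of the 4 groups had at least 1 library at 0, and all overlapped.

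VTRNA1-2 held 16.8, 0, 0, 40.4 and 29.7 reads in HD granules and 5.9, 14.8, 7.8, 9.8 and 0 in control granules. It was listed at 0 in all HD exosome libraries, and it held 2, 0, 4, 0 and 0 reads in control exosomes. VTRNA1-3 held 0, 9.1, 0, 18 and 0 reads in HD granules and 3, 0, 0, 5 and 3 in control granules, and none in exosomes. Its granule counts were too low to pass the count filter of any comparison. In HD granules, VTRNA1-1 and VTRNA1-2 did not always appear together. Library 2 held 77 reads of VTRNA1-1, its highest count in that group, and none of VTRNA1-2. Library 4 held 40.4 reads of VTRNA1-2, its highest count there, and none of VTRNA1-1. VTRNA2-1 was listed at 0 in all 20 libraries. For the named entry, counting error alone allows up to 0.0782 to 1.52 reads per M reads, from 3 reads over the total of each library, in the 19 libraries other than HD exosome 4. This does not bound the level of the RNA, since RNY1 was at 0 in libraries where an unnamed entry of near length held reads, and reads on the overlapping exon or on unnamed entries were not tested for VTRNA2-1.

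**Figure D2:**
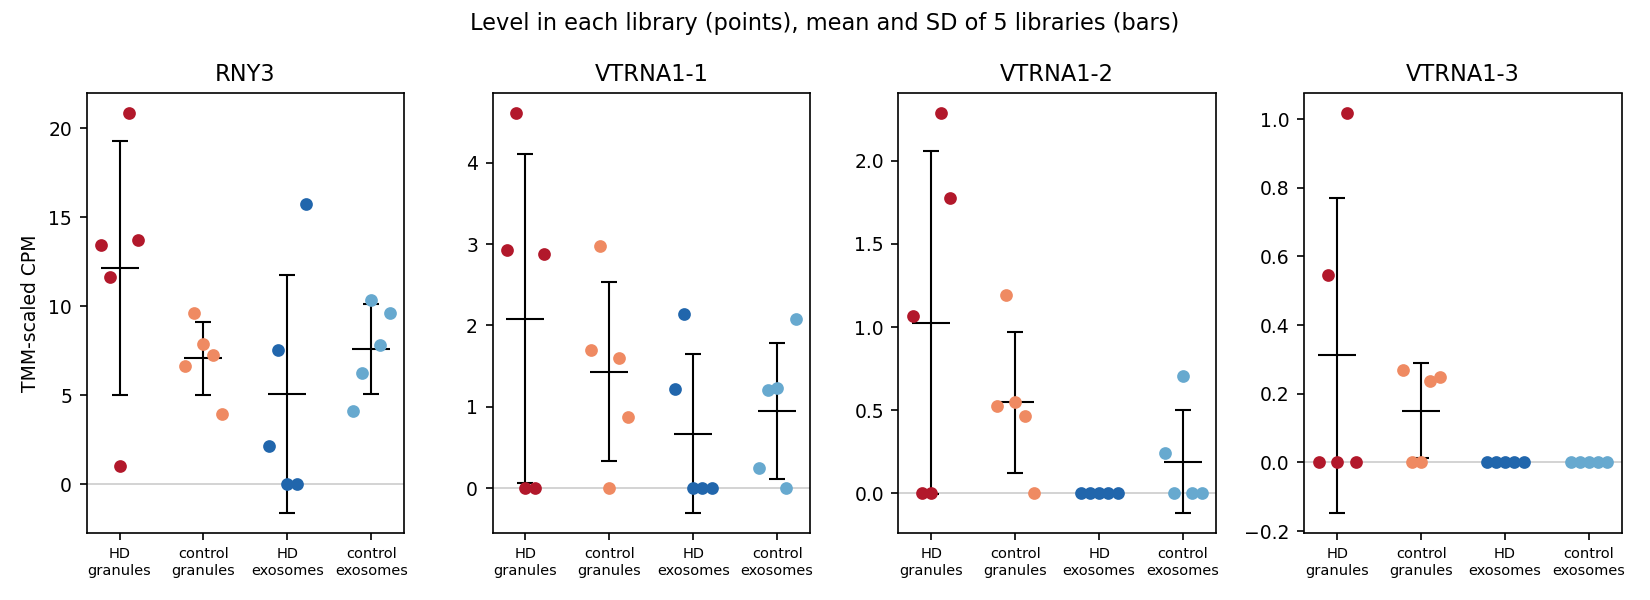
Points give the TMM-scaled CPM of RNY3, VTRNA1-1, VTRNA1-2 and VTRNA1-3 in each of 5 libraries per group, with the mean and SD in black, each gene on its own axis. RNY3 lies at 3.95 to 20.8 CPM in the granule libraries other than HD granule 3, and VTRNA1-3 is at 0 in all exosome libraries.

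Per length, in the control groups, the order of the mean levels was RNY1, RNY3, RNY4 and then the VTRNA1 genes when RNY1 and RNY4 were counted with their unnamed entries and RNY3 without its copies. In control granules the means were 726, 69.3 and 40.7 CPM per kilobase for RNY1, RNY3 and RNY4, and 14.4, 6.14 and 1.70 CPM per kilobase for VTRNA1-1, VTRNA1-2 and VTRNA1-3. The RNY1 sum, at 478 to 1152 CPM per kilobase, lay above RNY3, at 38.7 to 94.4, in every control granule library. The RNY4 sum lay at 27.6 to 52.7 CPM per kilobase there, a range that overlapped that of RNY3, although RNY3 was the higher of the pair in each of the 5 libraries. The ranges of VTRNA1-1 and VTRNA1-2 overlapped as well. The rank of RNY1 depended on the counting, since RNY3 with its copies was at 792 CPM per kilobase in control granules, and named RNY1 was at 0. In control exosomes the corresponding means were 1442.5 CPM per kilobase for the RNY1 sum, 74.7 for RNY3, 62.1 for the RNY4 sum, 9.60 for VTRNA1-1 and 2.14 for VTRNA1-2. In HD exosomes the order of RNY4 and RNY3 was turned, at 158 CPM per kilobase for the RNY4 sum and 49.8 for RNY3. The order is one of reads per full length, and how far recovery of RNAs this short depended on their length was not tested. The deposited TPM values, in which counts are divided by an effective length, were not used to rank these genes. They rest on effective lengths of 8 to 11 nt for RNY1, 3 to 8 nt for RNY3, 3 to 10 nt for VTRNA1-1 and 10 to 31 nt for VTRNA1-2 in those 19 libraries, far below the true lengths of 113, 102, 99 and 89 nt. RNY3 was thus given 501 ± 245 TPM in HD granules, 396 ± 76.6 TPM in control granules, 223 ± 361 TPM in HD exosomes and 538 ± 145 TPM in control exosomes (SD, n = 5 each).

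No Y RNA or vault RNA passed the test in any of the 5 comparisons of edgeR's quasi-likelihood fit, in which p-values were adjusted over all genes tested and called under 0.05. Between granules and exosomes of control cells, 0 of the 2 members tested were called, beside 62.4% of all 14777 genes tested. RNY1 and RNY4 as named genes, and the other vault RNAs, did not pass the count filter there. RNY3 had a log2 fold change of -0.18 ± 0.30 (SE, adjusted p = 0.629) and VTRNA1-1 of 0.48 ± 0.90 (adjusted p = 0.661) in this edgeR fit. The 95% interval around the RNY3 value ran from -0.77 to 0.42, and that around VTRNA1-1 from -1.29 to 2.25. The RNY3 interval was the narrowest of any member in the 5 comparisons, and it leaves out a change of 2-fold in either direction.

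Between granules and exosomes of HD-induced cells, 0 of 3 members were called, beside 17.7% of 14431 genes. The log2 fold changes were -2.79 ± 1.71 for RNY1 (adjusted p = 0.273), 0.92 ± 0.84 for RNY3 (adjusted p = 0.467) and 1.32 ± 1.38 for VTRNA1-1 (adjusted p = 0.529), from edgeR. The RNY1 value sets HD granule libraries, of which 3 listed the named gene at 0, against HD exosome libraries, of which 4 listed it above 0. With its unnamed entries, RNY1 on the CPM scale was at 0.349 times the HD exosome mean in HD granules, and at 0.503 times the control exosome mean in control granules.

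Between exosomes of HD-induced and control cells, 0 of 2 members were called, beside 0% of 12936 genes called by edgeR, 980 of which had an unadjusted p under 0.05. DESeq2 and limma voom also called 0 genes there, and limma on log2(TPM + 1) called 2. The named RNY1 had a log2 fold change of 2.70 ± 1.65 (adjusted p = 0.606) and RNY3 of -0.23 ± 0.66 (adjusted p = 0.919) in edgeR. The RNY1 interval ran from -0.53 to 5.93. HD exosome library 4, with its 1074 reads, entered this fit, the one within HD-induced cells and the one on all 4 groups. The named RNY1 was at 0 in 3 of 5 control exosome libraries, all with reads on its unnamed entries. With those entries, RNY1 on the CPM scale was at 2.10 times the control exosome mean in HD exosomes, with overlap between the groups.

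Between granules of HD-induced and control cells, 0 of 3 members were called, beside 0% of 16750 genes, of which 215 had an unadjusted p under 0.05 in edgeR. DESeq2 called 4 genes, limma voom 5 and limma on log2(TPM + 1) 0, none of them a member. Beside RNY3, VTRNA1-1 had a log2 fold change of 0.51 ± 1.24 and VTRNA1-2 of 0.84 ± 1.13, both with an adjusted p of 0.9995 in edgeR.

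For the HD effect in granules minus that in exosomes, 0 of 3 members were called, beside 0.0186% of 16154 genes. No member had an unadjusted p under 0.05 in any of the 5 comparisons with edgeR. The difference was 0.99 ± 0.93 for RNY3 (adjusted p = 0.898) and 0.73 ± 1.83 for VTRNA1-1 (adjusted p = 0.988) on the log2 scale. For RNY1 the fitted difference was 9.36 ± 4.53 (adjusted p = 0.875 in edgeR), a value that depends on the small count added to control granules, where the named gene was at 0 throughout. DESeq2 called this RNY1 difference, at 23.03 with an adjusted p of 0.00105, against 0 members called by limma voom or by limma on log2(TPM + 1).

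**Figure D3:**
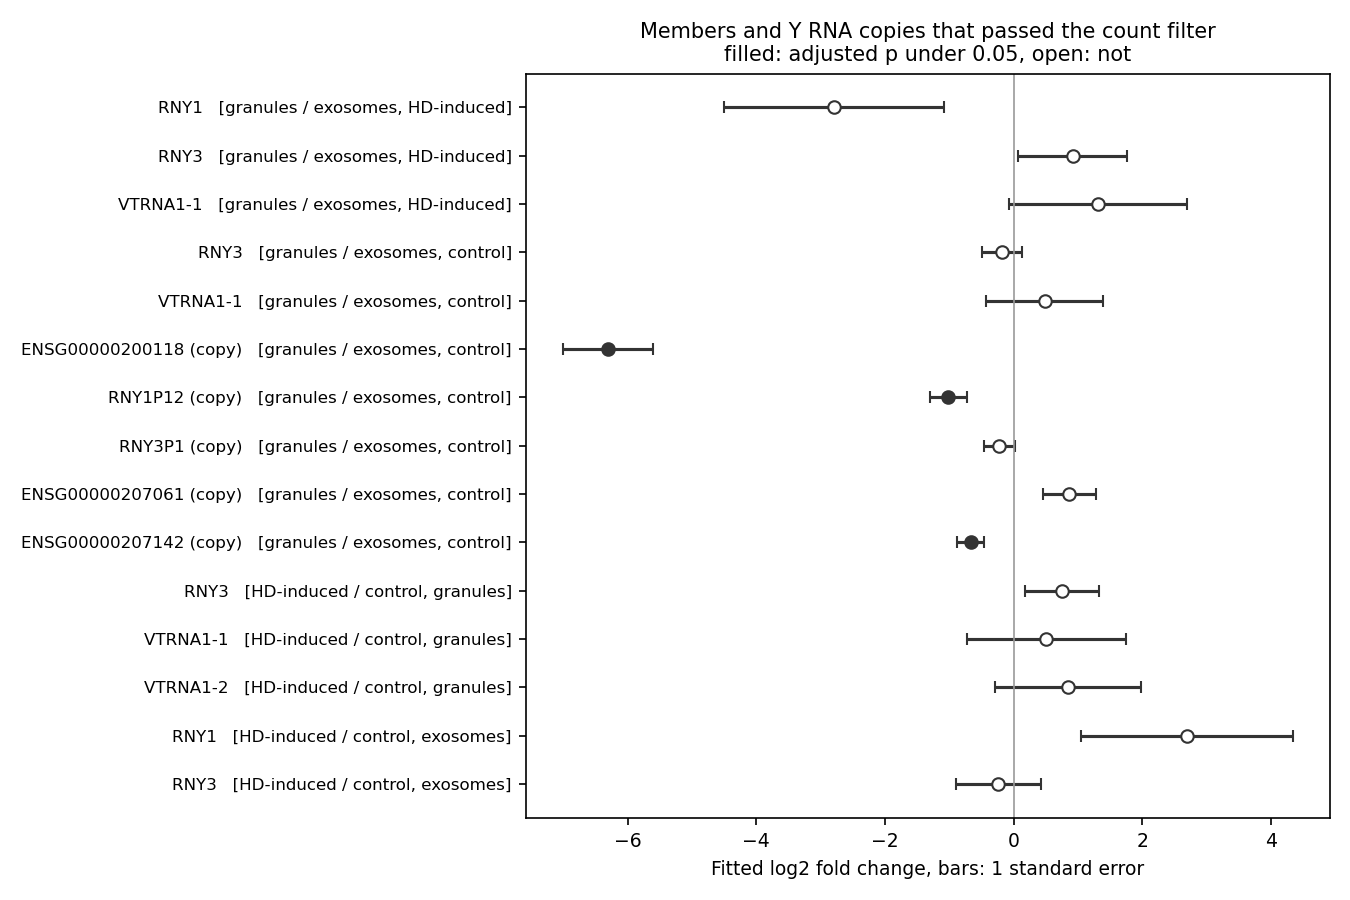
Fitted log2 fold changes with 1 SE for the members, and for Y RNA copies in control cells, that passed the count filter. Filled points passed an adjusted p of 0.05 in edgeR. The 3 filled points are Y RNA copies lower in granules than in exosomes of control cells, at -6.30, -1.01 and -0.67, and no member is filled. ENSG00000199550, at 0 in all granule libraries, has no point.

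Genomic copies of the Y RNAs took more reads than RNY3 itself, and some of them fell in granules relative to exosomes of control cells. The files hold 785 genes whose symbols mark them as Y RNA copies, of which 180 had a read and 9 had 100 or more over all libraries. The 6 vault RNA copies had none. In control cells 6 copies could be tested, and 4 of them fell in granules relative to exosomes while 0 rose. The background in that comparison was 62.4% of genes called, in either direction, so 4 of 6 is near it. Copies with 100 or more reads are named below, a limit set after values were seen.

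The sequence of 1 called copy, ENSG00000199550, is shown because it tells how close the copy is to its parent RNY1. Capitals mark bases that differ from RNY1 in an alignment over the full length.
ENSG00000199550: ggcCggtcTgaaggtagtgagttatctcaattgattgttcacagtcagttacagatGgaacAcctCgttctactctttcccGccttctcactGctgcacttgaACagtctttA
ENSG00000207142 is 97.1% identical to RNY3 and lies in an intron of PPHLN1, on the same strand as that gene. ENSG00000200118 is 91.2% identical to RNY3 and lies in an intron of PRKCI, the gene of an atypical protein kinase C, again on the same strand. ENSG00000199550 is 91.2% identical to RNY1, with 10 substitutions and no gap. It lies on the plus strand at chr11:2372638-2372750, in an intron of CD81-AS1 on the opposite strand. With copies this near, the authors' estimated counts may split reads between parent and copy, and reads of an intron may be counted to the copy within it, neither of which was tested.

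ENSG00000207142 was the most abundant copy, with 13370 reads over all libraries, against 1837 for RNY3. It averaged 76.1 ± 42.9 CPM in HD granules, 51.1 ± 14.6 CPM in control granules, 80.8 ± 61.6 CPM in HD exosomes and 76.4 ± 15.2 CPM in control exosomes (SD, n = 5 each). In HD granule library 3 it was listed at 0, while the other 4 libraries of that group lay between 87.8 and 101 CPM, and without that library the HD granule mean was 95.1 ± 6.45 CPM. Without HD exosome library 4 the HD exosome mean was 101 ± 48.4 CPM. In control cells it fell by 0.67 ± 0.21 on the log2 scale in granules (adjusted p = 0.0136 in edgeR), with overlap between the groups. The adjusted p was 0.0524 without control granule library 4 and 0.0617 without control granule library 5, so the call rested on those libraries.

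ENSG00000200118 held 2.8, 0, 0, 4.6 and 0 reads in control granules, against 73, 74, 56, 65 and 21 in control exosomes. These were 0.0929 ± 0.128 CPM and 8.97 ± 3.46 CPM (SD, n = 5 each). The log2 fold change was -6.30 ± 0.70 (adjusted p = 1.14e-05 in edgeR), in a comparison where 62.4% of all genes were called. In HD-induced cells it held 0, 5.7, 0, 0 and 2.9 reads in granules and 46, 22, 0, 0 and 0 in exosomes, and it did not pass the count filter.

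ENSG00000199550, the RNY1-like copy, was listed at 0 in all 10 granule libraries. It held 45, 28, 70, 0 and 96 reads in HD exosomes, and 41, 40, 64.9, 43 and 16 in control exosomes. Against a floor of 3 reads over the 5 granule libraries, the scaled count on this entry was at least 148-fold lower in granules than in exosomes of control cells. That difference was called by edgeR (adjusted p = 2.9e-05). In granules of HD-induced cells, where the entry was not tested, the count was at least 580-fold lower. These bounds hold for counts on the named entry and do not bound the level of the RNA. Between HD-induced and control exosomes the log2 fold change of the entry was 2.11 ± 0.53 (adjusted p = 0.598 in edgeR). RNY1 was also listed at 0 in libraries where an unnamed entry of near length held reads, and whether the zeros of this copy come with reads on unnamed entries was not tested.

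The remaining copies with 100 or more reads behaved in different ways. RNY1P12, an RNY1 copy in an intron of ZBTB11, fell by 1.01 ± 0.29 on the log2 scale in control granules relative to control exosomes (adjusted p = 0.00864 in edgeR), at 4.19 ± 1.07 CPM against 7.98 ± 2.47 CPM. RNY3P1 averaged 16.3 ± 3.43 CPM in control granules and 17.9 ± 5.37 CPM in control exosomes, with a log2 fold change of -0.22 ± 0.24 (adjusted p = 0.445 in edgeR). ENSG00000207061, an RNY3-like copy outside annotated genes, had the opposite sign, at 1.83 ± 0.597 CPM in control granules and 0.961 ± 0.402 CPM in control exosomes (log2 fold change 0.87 ± 0.41, adjusted p = 0.0849 in edgeR). That copy passed the threshold in limma voom (adjusted p = 0.046) and in edgeR without control exosome library 4 (0.0474) or control granule library 5 (0.0361).

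ENSG00000238723, in an intron of KANSL1, was at 0 in all 10 granule libraries, and averaged 3.92 ± 3.29 CPM in HD exosomes and 3.02 ± 1.58 CPM in control exosomes. ENSG00000202357 averaged 0.436 ± 0.331 CPM in control granules and 0.727 ± 0.640 CPM in control exosomes. ENSG00000200494 held 23.1 and 29.4 reads in HD granule libraries 1 and 3, 117.3 in control granule library 1, and none in exosomes. No copy was called by edgeR in the other 4 comparisons, in which 4 to 7 were tested.

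**Figure D4:**
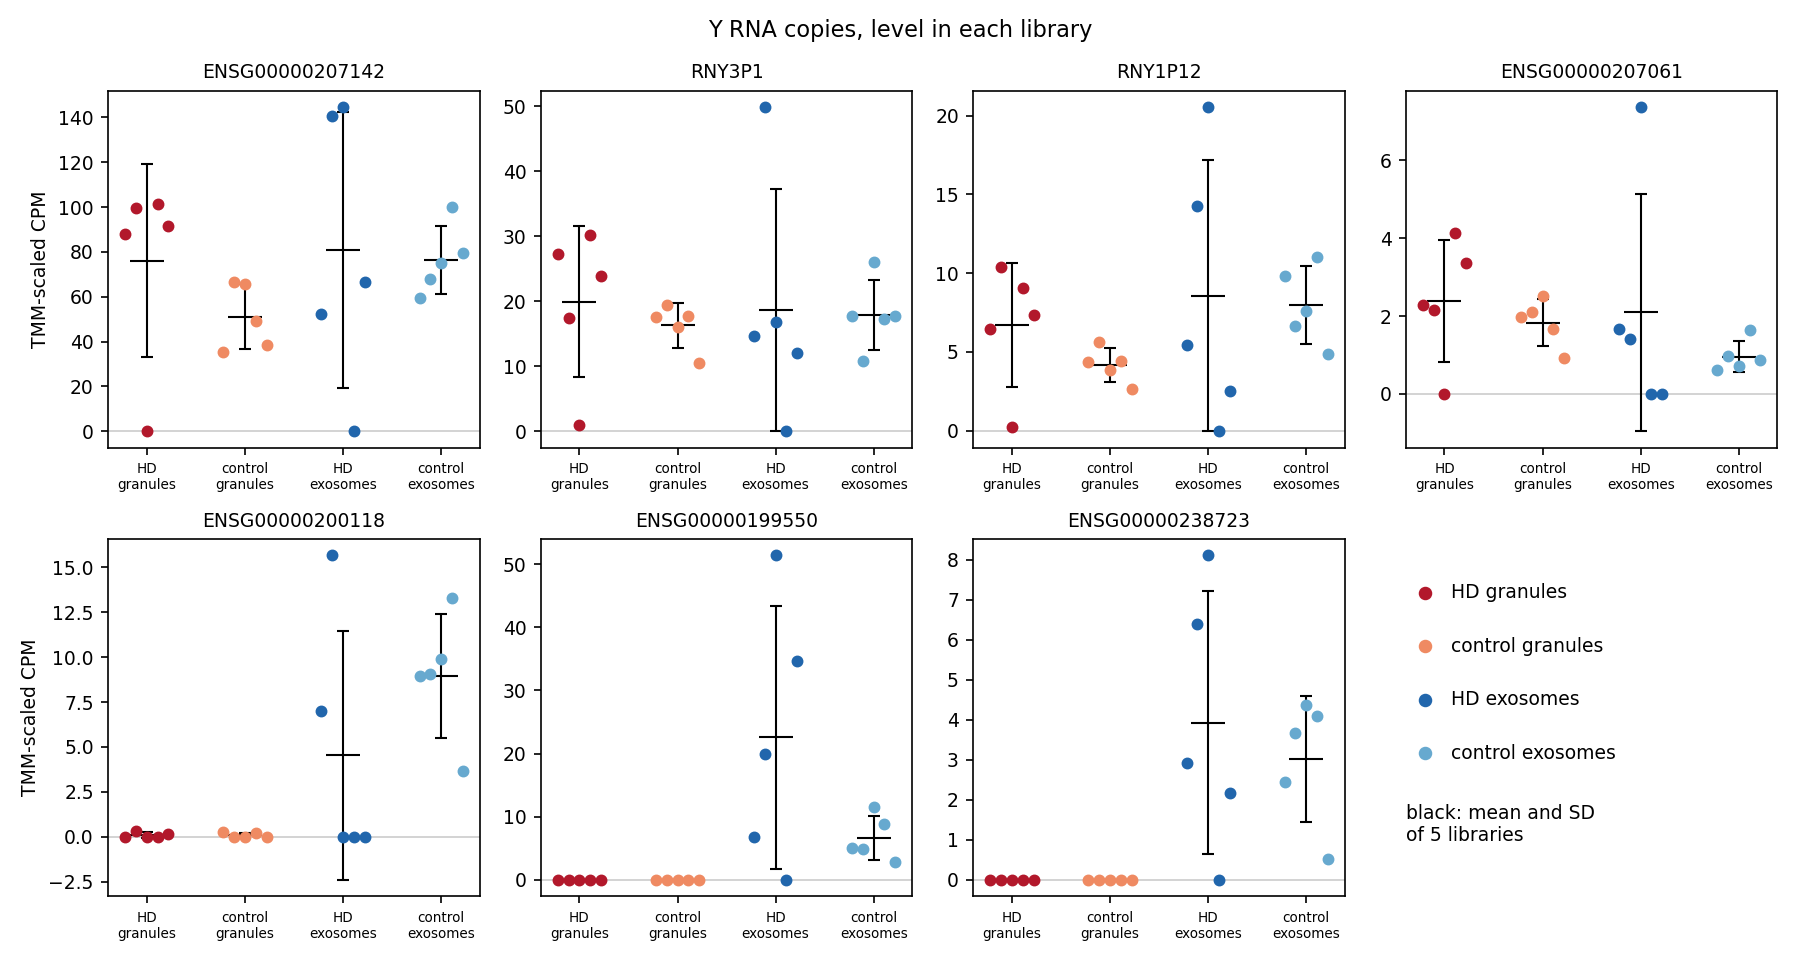
Points give the TMM-scaled CPM of 7 Y RNA copies in each of 5 libraries per group, with the mean and SD in black, each copy on its own axis. ENSG00000200118, ENSG00000199550 and ENSG00000238723 lie at or near 0 in all 10 granule libraries, whereas RNY3P1 overlaps across all 4 groups.

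The calls of RNY3 and RNY1 depended on whether copies were counted with them. With the reads of copies added, RNY3 had a log2 fold change of -0.62 ± 0.18 between granules and exosomes of control cells (adjusted p = 0.00926 in edgeR), and RNY1 one of -3.78 ± 0.70 (adjusted p = 0.000549 in edgeR). RNY3 and its copies together averaged 114 ± 62.5 CPM in HD granules, 80.8 ± 17.7 CPM in control granules, 119 ± 89.1 CPM in HD exosomes and 117 ± 21.2 CPM in control exosomes (SD, n = 5 each). Without HD granule library 3 the HD granule mean was 141 ± 12.4 CPM, and without HD exosome library 4 the HD exosome mean was 149 ± 68.4 CPM (n = 4 each). Control granule libraries, at 55.2 to 99.98 CPM, overlapped control exosome libraries, at 95.5 to 147 CPM, in 1 pair of libraries at the edge. For RNY1 and its copies, control granules lay at 3.33 to 7.66 CPM and control exosomes at 15.6 to 174 CPM, but these sums leave out the unnamed entries.

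Summed markers of other cell types had higher medians in exosomes than in granules, as did the HEK293 markers, and their part in these results was not tested. Of 5 HEK293 markers tested in control cells, 4 fell and 1 rose in granules in edgeR, with a median log2 fold change of -1.19. Of 6 red blood cell markers 5 fell there, beside 62.4% of all genes called in either direction. The remaining one, HBA2, was at 0.08 ± 0.91 (adjusted p = 0.948 in edgeR). All 6 red blood cell markers had reads in every group, and their sum was 7.21 to 118 CPM in HD granules, 12.7 to 43.5 CPM in control granules, 101 to 2437 CPM in HD exosomes without library 4 and 83.2 to 307 CPM in control exosomes. The 4 keratinocyte markers summed to 1.75 to 7.23 CPM in HD granules, 0.982 to 2.80 CPM in control granules, 18.2 to 764 CPM in HD exosomes and 6.57 to 89.2 CPM in control exosomes, with KRT14 at 0 in HD exosomes. The 2 leukocyte markers were at 0 to 1.86 CPM in HD granules, 0 to 0.584 CPM in control granules, 9.41 to 26.4 CPM in HD exosomes without library 4 and 5.03 to 15.1 CPM in control exosomes. Of these, RGS18 was at 0 in all 10 granule libraries. The 3 fibroblast markers lay at 3.94 to 49.4 CPM in HD granules, 2.55 to 13.97 CPM in control granules, 31.6 to 96.2 CPM in HD exosomes without library 4 and 17.4 to 45.8 CPM in control exosomes.

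Of 25 genes of proteins that bind or process Y RNAs, all of them tested, 14 fell and 4 rose in granules relative to exosomes of control cells, beside 62.4% of all genes called, of which 4796 fell and 4431 rose. Their median log2 fold change was -0.53, beside -0.02 for all genes tested. YBX1, a Y-box protein linked to the sorting of small RNAs into exosomes, fell by 3.13 ± 0.17 (adjusted p = 6.82e-08 in edgeR), at 222 CPM in control granules and 1824 CPM in control exosomes. TOE1, a nuclease that trims the 3′ ends of small RNAs, fell by 1.40 ± 0.12, and PTBP1, a splicing regulator found with Y RNAs, by 1.99 ± 0.18, each called by edgeR. In HD-induced cells 2 of 25 rose and 2 fell, beside 17.7% of all genes called, with a median of -0.26 beside 0.17 for all genes. YBX3 rose by 1.14 ± 0.29 (adjusted p = 0.0175), YBX1 fell by 1.93 ± 0.57 (adjusted p = 0.0332) and PUF60, a splicing factor also known to bind Ro60 particles, fell by 1.76 ± 0.53 (adjusted p = 0.0351) there, all from edgeR.

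Of the 10 mRNAs of vault particle proteins and vault RNA partners, 4 fell and 2 rose in granules of control cells, with a median of -0.14, a share called that is near the 62.4% of all genes. SQSTM1 fell by 1.62 ± 0.15 (adjusted p = 2.58e-06 in edgeR), at 123 CPM in control granules and 355 CPM in control exosomes, and MVP fell by 1.56 ± 0.27 (adjusted p = 0.000315). DICER1, the ribonuclease that can cut vault RNAs into small RNAs, rose by 0.72 ± 0.12 (adjusted p = 0.000238). In HD-induced cells 0 of the 10 passed the edgeR test. Lowest in p there was SSB, the gene of La, with a log2 fold change of 0.99 ± 0.35 (adjusted p = 0.0653), followed by EIF2AK2, the gene of PKR, at -0.76 ± 0.34 (adjusted p = 0.13).

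Of the 30 mRNAs of RNA polymerase III and its factors, 15 fell and 4 rose in granules of control cells, with a median of -0.39, again a share called near the 62.4% of all genes. GTF3C5, a subunit of the promoter-binding factor TFIIIC, fell by 2.31 ± 0.21, GTF3C2, a further subunit, by 1.54 ± 0.14 and the polymerase subunit CRCP by 1.82 ± 0.16, each called by edgeR. In HD-induced cells 2 of 30 rose and 1 fell, beside 17.7% of all genes called. SNAPC1 rose by 1.76 ± 0.48 (adjusted p = 0.0235), BDP1 rose by 1.14 ± 0.36 (adjusted p = 0.0432) and GTF3A, the 5S rRNA gene factor, fell by 0.97 ± 0.31 (adjusted p = 0.0462) in edgeR.

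Of 6 other transcripts of RNA polymerase III tested in control cells, 4 rose and 1 fell in granules, with a median of 1.62, beside 62.4% of all genes called. RMRP, the RNA of RNase MRP, rose by 1.23 ± 0.24 (adjusted p = 0.000895 in edgeR), at 3638 CPM in control granules and 1463 CPM in control exosomes. RN7SK, which restrains the elongation factor P-TEFb, was listed at 0 in granules of both kinds of cells, against 1167 CPM in HD exosomes and 7311 CPM in control exosomes. RN7SL2, a signal recognition particle RNA, averaged 257 CPM in HD granules, 574 CPM in control granules and 2760 CPM in HD exosomes, and was listed at 0 in control exosomes. Whether these zeros come with reads on other entries was not tested. In HD-induced cells RNA5S1, a 5S rRNA gene, rose by 4.70 ± 1.15 (adjusted p = 0.0149 in edgeR) and RMRP by 2.46 ± 0.62 (adjusted p = 0.017), 2 of 5 tested, beside 17.7% of all genes called.

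None of these 4 lists had a member called by edgeR for HD-induced over control cells in exosomes, in granules, or for the difference of the 2 effects. In HD-induced over control exosomes the lowest p in each list belonged to MATR3 (0.81 ± 0.34), TEP1 (-0.57 ± 0.26), SNAPC1 (0.92 ± 0.32) and RMRP (-0.78 ± 0.37), on the log2 scale with an adjusted p of 0.598 for each in edgeR. In granules they belonged to CPSF2 (-0.24 ± 0.12), SQSTM1 (0.39 ± 0.22), POLR3C (0.26 ± 0.16) and BCYRN1 (-1.33 ± 0.80), with an adjusted p of 0.9995 for each.

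The genes whose levels were most like those of a member were found by the root mean square difference of centred log2 CPM over 19 libraries, among 16144 genes. For RNY3 these were RIDA (0.692), PPP4R4 (0.718) and SPDYA (0.773), beside an SD of 1.51 for RNY3 itself. For VTRNA1-1 they were DUSP15 (1.20), ENSG00000286104 (1.22) and NDUFA7 (1.27), beside an SD of 1.67. For RNY1 they included the keratin gene KRT6A (3.63) and PKP1 (3.76), beside an SD of 4.99. Those differences were the smallest found but were large, so neither gene was close to RNY1. The measure used the named RNY1 entry alone, which was at 0 in 11 of the 19 libraries. Its unnamed entries held reads in all 11, and likeness to the summed entries was not tested.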

How the data were processed

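Total RNA of granules and exosomes was sequenced as paired reads of 100 bases on a stranded library, per the labels' protocols. Trimmomatic, cutadapt, FastQC and Salmon with build GRCh38.p14 are named in the submitters' processing notes, without versions or the strand setting. The deposited files hold the authors' estimated counts (expected counts, which need not be whole) and TPM values for 921552 entries per library, of which 251955 carry a gene name. Estimated counts were summed per named gene and rounded. edgeR 4.0.16 (quasi-likelihood, robust, filterByExpr, TMM) in R 4.3.3 tested 5 comparisons, with Benjamini-Hochberg adjustment over all genes tested and SE taken from the F statistic. Displayed CPM use 1 TMM scale over 20 libraries, set from reads on named genes that passed the count filter. Alternatives used DESeq2 1.42.0, limma 3.58.1 (voom, or log2(TPM + 1)), other scalings, no filter, copies added to their closest gene, and libraries left out. On simulated data the control comparison of 14777 genes recovered 52% of 2-fold and 83% of 4-fold changes, and the HD-induced one of 14431 genes recovered 3% and 50%. The changed genes were drawn at random from all genes tested. These rates therefore do not describe members with few reads or with all-or-none reads. Named were all members, up to 3 genes with the smallest p per list and comparison, and the 3 genes most like each member; 1 such gene and some sequences are not reported here. The members and lists were chosen with earlier results of these data known. Same-numbered libraries deviated with correlations of -0.138 to 0.454, not all above 0.1 in any comparison, and were not treated as pairs. Sequences were read with Biopython 1.88.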

Additional observations from a re-analysis of the deposited data

Results flagged for a closer look

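In 5 of 55 groups of 5 libraries, 1 library stood far from the other 4, where chance flags about 1 group in 20 for continuous values. That rate does not hold for counts with many zeros, and for RNY4 and ENSG00000200494 the other 4 libraries were all at 0, so that any reads in 1 library meet the criterion. RNY4 was at 5.06 CPM in control granule library 2 and at 0 in the other 4. ENSG00000207142 was at 0 CPM in HD granule library 3, against 87.8 to 101 CPM in the other 4. ENSG00000207061 was at 7.38 CPM in HD exosome library 3, against 0 to 1.67 CPM. ENSG00000202357 was at 1.84 CPM in control exosome library 4, against 0.347 to 0.712 CPM. ENSG00000200494 was at 10.5 CPM in control granule library 1, against 0 in the others. The causes were not tested.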

How the results depend on the processing

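Of 383 alternative values of 19 fold changes, 362 kept their direction and side of the threshold, 14 changed sign, 5 newly passed and 2 no longer passed; the causes were not tested. The number of members called was 0 under every alternative but 2: it was 2 between control granules and exosomes with copies added, and 1 for the difference of HD effects with DESeq2 (RNY1, 23.03). Leaving out each library in turn gave 0 to 0 members called and 4 to 5 copies called lower. RNY3 changed sign between control granules and exosomes without control granule library 5 (0.066), in HD-induced cells with copies added (-0.30), and in HD-induced over control exosomes with copies added (0.35), without HD exosome library 1 (0.14) or library 3 (0.14). Leaving out 1 library gave RNY3 -0.35 to 0.066 in control cells and -1.24 to 0.14 in exosomes. VTRNA1-1 changed sign with voom in control (-2.13) and HD-induced cells (-0.26), in granules with log2 TPM (-0.98) and without HD granule library 2 (-0.0055; range over left-out libraries -0.0055 to 1.00), and in the difference of HD effects with DESeq2 (-0.17). VTRNA1-2 in granules was -0.28 with voom and -0.13 with log2 TPM, and the RNY1 difference of HD effects was -0.84 with log2 TPM. RNY3P1 (ENSG00000201955) in control cells was 9.48e-05 without control granule library 5, in a range from -0.37.

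With the replicate number as a block, 0 members were called in each comparison, RNY3 was -0.17, 1.14, -0.62, 0.50 and 1.02 in the order of the report, and 9297, 4006, 296, 0 and 1 genes were called. In HD-induced granules over exosomes 2553 genes were called, against 4244 with no filter, 6029 with voom, 852 with all reads as library size, 110 with log2 TPM, 5758 without HD exosome 2 and 4 and HD granule 3, 5346 without HD granule library 3, and 1477, 1349 and 1240 without HD granule libraries 1, 4 and 5, with fewer still without library 2. In HD-induced over control exosomes 275 were called with no filter, 8 with all reads, 2 with log2 TPM and 0 to 497 without 1 library. In granules 4 were called with DESeq2, 5 with voom and 1 with all reads, and for the difference of HD effects 17 with DESeq2, 1 with log2 TPM and 1 to 28 without 1 library. The all-gene median was -0.02 in control cells and at most 0.11 under other scalings, and 0.17 in HD-induced cells and at most 0.32 under them, where 1720 higher and 833 lower calls became 2459 and 577 with RLE factors. Upper-quartile factors could not be computed with HD exosome library 4. Depth limits the vault RNAs in exosomes, where 3 reads are up to 1.52 per M reads.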
